A study of Mus musculus with 29 samples.

Results

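The genes described here are 10 genes of glycosylphosphatidylinositol (GPI) anchor synthesis: *Piga*, *Pigb*, *Pigc*, *Pigf*, *Pigh*, *Pigk*, *Pigo*, *Pigq*, *Pigs* and *Pigt*, of 18194 genes with a value. They were chosen as the genes that share a pathway with *Pigo*, and *Pigo* itself was selected on its measured signals in these same cells, which were present in alpha cells and low in direction selective cells. Its own alpha pattern is therefore given as a description. The question was whether any other gene of the pathway followed it. The 10 genes are read by 28 probe sets, and all of them were examined.

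The data come from 29 single retinal ganglion cells (RGCs) of the adult mouse retina, from C57BL/6 mice in the labels and C57BL/6J mice in the methods, with no genetic change or drug treatment named in the labels. Each cell was classified by its light responses in a cell-attached recording, its contents were taken up into a glass pipette, and its amplified cDNA was hybridized to its own microarray. There were 9 alpha cells, namely 2 ON alpha, 4 OFF sustained (OFF S) alpha and 3 OFF transient (OFF T) alpha cells. They were set against 8 direction selective (DS) cells, 4 ON DS and 4 ON-OFF DS, and 2 orientation selective (OS) cells, 1 ON vOS for vertical and 1 ON hOS for horizontal orientation. The other 10 cells were 2 suppressed by contrast (SbC) cells and 1 cell each of local edge detector (LED), ON S non-alpha (sustained), PixON (on pixel encoder), OFF high speed selective, EyeWire 4i, EyeWire 6sn, EyeWire 6sw and J-RGC. Each cell is named by its subtype and its number from 1 to 29. The labels name no animal for any cell, so cells were not treated as replicates, and all differences below are descriptions with no test.

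Values are linear array signals with a 2% trimmed mean of 1500 on each array. The threshold of detection was set at 3000, or 2 times the trimmed mean, and log2 signals were floored at 375 (8.55 on the log2 scale). For a gene with several probe sets, the brightest by mean log2 signal was used. Signals of different probe sets were not set against each other, since probes differ in how brightly they bind.

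The labelled classes were checked against marker genes. Of 9 RGC genes with a value, alpha cells had 5 to 9, DS and OS cells 6 to 9 and the other cells 3 to 9. *Sncg*, a synuclein of RGCs, was detected in all 29 cells. *Rbpms* was detected in 2 of 9 alpha, 8 of 10 DS and OS and 5 of 10 other cells. For *Pou4f1* these counts were 3, 4 and 4. *Nefh*, a neurofilament of alpha cells, was detected in 9 of 9 alpha and 5 of 10 DS and OS cells. *Kcng4*, a potassium channel subunit, was detected in 5 and 2. *Pvalb*, a calcium buffer listed for alpha cells, did not separate them, with 8 of 9 alpha and 9 of 10 DS and OS cells. Of the DS genes, *Cartpt* was detected in 0 of 9 alpha and 7 of 10 DS and OS cells, *Pcdh8* in 1 and 7, *Fam163a* in 0 and 5 and *Mmp17* in 3 and 3. The authors named *Pcdh8* and *Fam163a* for DS cells from these same cells, so the counts of these genes do not check the labels. *Spp1* and *Pou4f2* had no value in the table. Detected genes ran from 1672 to 4073 in alpha cells (median 3015), from 1842 to 3591 in DS and OS cells (median 2790.5) and from 1182 to 4201 in the other cells (median 2838.5). At least 5 of 10 rod genes were detected in 6 of 9 alpha, 4 of 10 DS and OS and 8 of 10 other cells. Of 8 Müller glia genes, alpha cells had 1 to 5, DS and OS cells 1 to 4 and the other cells 0 to 6, led by *Clu* in 27 cells and *Dkk3* in 21, with *Apoe* in 0. Of 7 amacrine genes, the 3 classes had 0 to 2, 0 to 2 and 0 to 3, led by *Slc6a9* in 8 cells, with *Chat* in 0. Of 5 bipolar genes, they had 0 to 2, 0 to 2 and 0 to 3, led by *Isl1* in 11 cells, with *Trpm1* in 0. The part of RNA from other cell types in the results below was not tested. Leaving out the 18 cells with 5 or more rod genes leaves 3 alpha, 6 DS and OS and 2 other cells, and values without these rod-rich cells are given beside the genes whose value moved most.

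The GPI anchor is a glycolipid, built in the endoplasmic reticulum, that holds many proteins on the outer face of the plasma membrane. A transferase starts it by placing N-acetylglucosamine on phosphatidylinositol. Mannoses and ethanolamine phosphates are then added. A transamidase cuts a tail from the protein and joins the protein to the ethanolamine phosphate on the third mannose. *Pigo*, with *Pigf* as a stabilizing partner, supplies that ethanolamine phosphate, so its product is the point of attachment. In neurons the anchored proteins include *Thy1*, contactins and other adhesion molecules.

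The stretches shown next are the places where the promoters of members share a short run of bases, since promoters are a feature the choice of members did not use. Of the 10 members, 9 had a promoter window in RefSeq (GRCm38.p6), and *Pigk* did not. The 250 bases before each start were searched on both strands for 6 motifs. They were the ETS family core CCGGAAG, the GC box as GGGCGG, the pentamer CCAAT, the E-box CACGTG, the cAMP response element TGACGTCA and the TATA box as TATAAA. None of the 6 is contained in another. The motifs were chosen with the members' windows in view, and 3 longer ones, for NRF1, ZNF143 and BANP, were searched as well and were present in 0 members (0.877%, 0.296% and 0.448% of all symbols). The run CCGGAAG or its reverse complement was present in 6 of 9 members, against 7.83% of 27025 gene symbols with such a window. That comparison was not matched for base composition, and the run itself contains CG. The members' windows held 50% to 64.4% G and C and 7 to 22 CG pairs, against medians of 52.4% and 6 over all windows. The window of the more upstream *Pigo* start, at 50%, was the sole one under the median for G and C. How far base composition accounts for the 6 of 9 was not tested. The run is printed in capitals, with 10 bases on each side, along the strand of each gene.
Pigo, chr4:43025782-43025808, minus strand: tgccgctgcaCTTCCGGgcgcggatcc
Pigf, chr17:87025535-87025561, minus strand: cgtcagcccgCTTCCGGactctcagcc
Pigb, chr9:73039712-73039738, minus strand: gactcatccgCTTCCGGcagcacttcc
Pigh, chr12:79089683-79089709, minus strand: ggctcagccgCTTCCGGgatggtcggg
Pigc, chr1:161969160-161969186, plus strand: tgctgcggatCCGGAAGtgctcctcca
Pigt, chr2:164497462-164497488, plus strand: cgggacggcgCCGGAAGtcctctctca

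In *Pigo* the match began 24 bases before the more downstream of its annotated starts, and it lay just downstream of the other start, so the 250 bases before that start did not hold it. *Pigf* held a second match, which began 170 bases before its start, against 150 for the one shown. *Piga*, *Pigq* and *Pigs* had none. The members that hold the run did not share a pattern over cells, as the values below show: *Pigh* was detected in 0 cells and *Pigb* in 16. The GC box was present in 3 of 9 members (35.4% of all symbols), the CCAAT pentamer in 4 (37.5%) and the TATA box in 1 (14.3%). The E-box (6.86%) and the cAMP response element (1.77%) were present in 0 members. These matches are descriptions of the sequence and do not show binding.

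The *Pigo* signals of alpha cells were 4040 and 25424 in ON alpha cells 12 and 13. They were 101.2, 80.6, 10302 and 76403 in OFF S alpha cells 14, 15, 16 and 18. They were 18226, 3463 and 26986 in OFF T alpha cells 17, 19 and 20. Thus 7 of 9 alpha cells had *Pigo* and 2 of the OFF S alpha cells did not. In the 10 DS and OS cells the signals ran from 4.2 to 332.3, with a median of 26.9, so 0 of 10 had it. Among the other 10 cells, SbC 25 alone had *Pigo*, at 24609, and the other SbC cell, SbC 26, was at 207.5.

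At the brightest *Pigo* probe set, the lowest signal above the threshold was 3463 in OFF T alpha 19. The highest below it was 478 in EyeWire 6sw 21, with no cell between. The difference of median log2 signal, alpha minus DS and OS, was 4.78. Its size is set by the floor, since the DS and OS median lay under it, and it was 8.64 with no floor and 2.78 with a floor at the trimmed mean. The other two probe sets of *Pigo* had r of 0.88 and 0.995 with the first over 29 cells, and neither was detected in any DS or OS cell. They were detected in 6 of 9 alpha cells each, so neither on its own would meet the alpha pattern defined below. ON alpha 12 was under the threshold at both, at 925.6 (r of 0.88) and 1759 (r of 0.995). At the probe set with r of 0.88, OFF S alpha 16 (3010) and OFF T alpha 19 (3000) lay at the threshold. In SbC 25 these probe sets disagreed, with 11442 at the one with r of 0.995 and 108.8 at the one with r of 0.88.

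**Figure D1:**
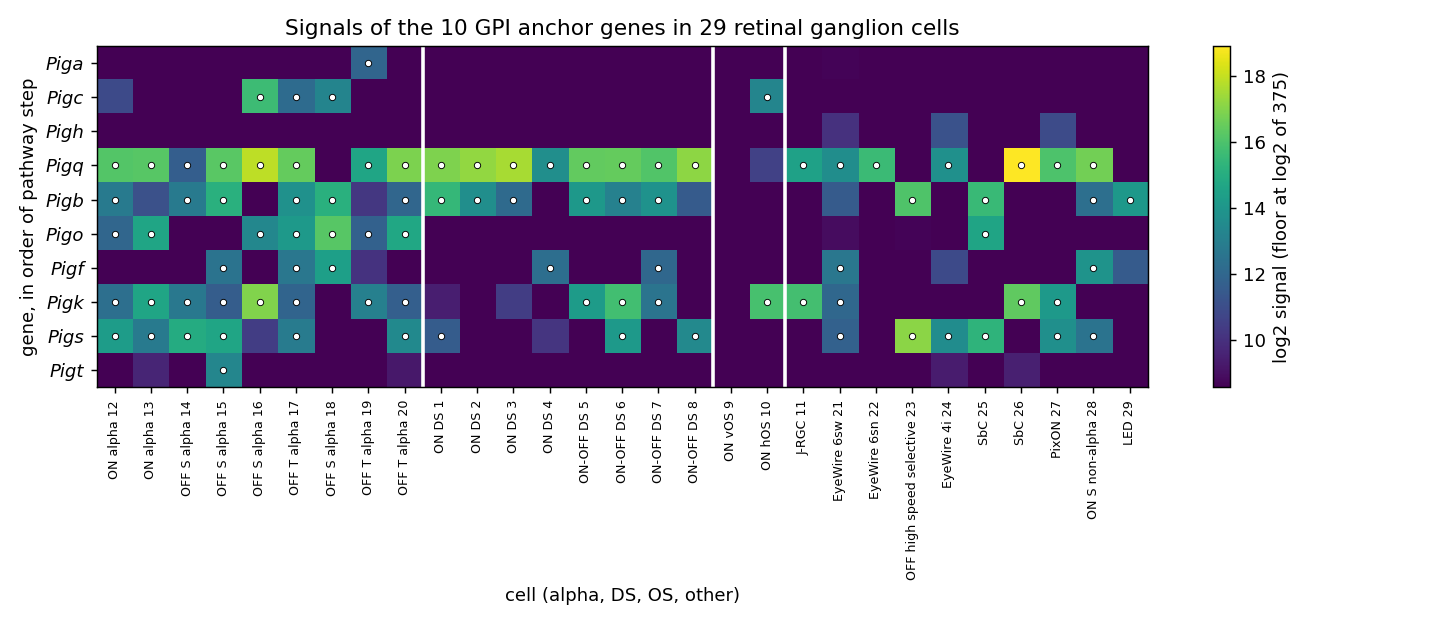
Heat map of log2 signals of the 10 members (rows, in order of pathway step) in the 29 cells (columns: alpha, DS, OS and other cells, split by white lines). White dots mark signals of at least 3000. *Pigo* has dots in 7 of 9 alpha cells, 0 of 10 DS and OS cells and SbC 25, and the row of *Pigq* has dots in 23 cells of every class except OS.

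The alpha pattern was defined as detection in at least 75% of alpha cells (7 of 9) and in at most 1 of the 10 DS and OS cells. It was met by *Pigo* at its brightest probe set, which the choice fixed, and by 0 of the other 9 members. Over all genes it was met by 10 of 18194, or 0.055%. Those 10 were *Armh4*, *Dnajc9*, *Gdpd5*, *Ndufaf1*, *Pigo*, *Ppargc1a*, *Psmd11*, *Slc39a7*, *Specc1* and *Vamp4*. With so rare a pattern, a count of 0 of 9 is close to the background and says little about the pathway as a set. At a threshold of 6000, and also after quantile normalization, *Pigo* was detected in 5 of 9 alpha cells and 0 of the 10 members met the pattern. The members' own values, given next, show in which cells each departed from *Pigo*.

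The first step is carried out by a complex with *Piga*, the catalytic subunit, and with *Pigc*, *Pigh* and *Pigq*. *Piga* was detected in 1 cell, OFF T alpha 19, at 3930, and the next highest signal was 401.2 in EyeWire 6sw 21. *Pigh* was detected in 0 of 29 cells and reached at most 2285, in EyeWire 4i 24. Neither gene could be compared with *Pigo* at these levels, because a signal under the threshold does not show that the transcript was absent.

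*Pigc* had the highest r with *Pigo* of the other members on floored log2 signals. Its signals were 52438 in OFF S alpha 16, 4613 in OFF T alpha 17 and 9513 in OFF S alpha 18, and each of these 3 alpha cells also had *Pigo*. In ON alpha 12 it was 1896, and in the other 5 alpha cells it was at most 39.1. Among DS and OS cells it was detected in ON hOS 10 alone, at 9806, where *Pigo* was 16.8. It was detected in 0 of the other 10 cells. Over 29 cells the Pearson r of *Pigc* with *Pigo* was 0.49 (Spearman rho 0.45), which placed it 36th of 7112 genes detected in at least 3 cells. The r was 0.59 without ON hOS 10 and 0.37 without OFF S alpha 18, 0.32 without the rod-rich cells and 0.19 on linear signals. Without the rod-rich cells the difference of medians was 2.34, where it was 0 over all alpha, DS and OS cells. The alpha median was then the 1896 of ON alpha 12, which is under the threshold. *Pigc* was detected in 1 of the 3 alpha and 1 of the 6 DS and OS cells left. Within the 8 cells that had *Pigo* the r was 0.10, and within the alpha cells it was 0.44. *Pigc* was detected in only 3 of those 8 cells and lay under the floor in others. These r values therefore cannot show whether the levels of both genes went together. The second probe set of *Pigc* was under the threshold in every cell.

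*Pigq* was the most widely detected member, in 8 of 9 alpha cells, 8 of 10 DS and OS cells and 7 of 10 other cells. It was present in all 8 DS cells, from 13157 to 195660, while both OS cells were under the threshold, at 22.4 and 1490. The alpha cell without it was OFF S alpha 18, at 7.0, which had the highest *Pigo* signal of all cells. In the other 8 alpha cells it ran from 3232 to 241956. The difference of medians was -0.24 and r with *Pigo* was -0.10, so *Pigq* did not separate alpha cells from DS cells. Without the rod-rich cells its r was 0.31. A further 3 of its 7 probe sets had r of 0.96 to 0.99 with the first, and the remaining 3 were detected in 0 to 3 cells.

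*Pigb* adds the third mannose, which is the sugar that *Pigo* then modifies. It was detected in 6 of 9 alpha, 6 of 10 DS and OS and 4 of 10 other cells, with a difference of medians of 0.15 and r of 0.20. Its signals in alpha cells ran from 39.4 to 35977 and those in DS and OS cells from 12.9 to 44914, so the groups overlapped almost fully. *Pigb* and *Pigo* were detected together in 5 cells, of which 4 were alpha cells. The other 2 probe sets of *Pigb* had r of 0.18 and 0.17 with the first. Each was detected in 5 of the 16 cells of the first, and they were detected in 1 and 2 cells in which the first was not. The one with r of 0.18 was detected in 1 of 9 alpha, 1 of 10 DS and OS and 4 of 10 other cells. For the one with r of 0.17 these counts were 2, 4 and 1. The reading of *Pigb* in a given cell therefore depends on the probe set.

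*Pigf*, a partner of *Pigo*, is read by 1 probe set. Its signals in alpha cells were 5777 in OFF S alpha 15, 6428 in OFF T alpha 17 and 21765 in OFF S alpha 18, and at most 1084 in the other 6. In DS cells it was detected in ON DS 4 at 5051 and ON-OFF DS 7 at 4187, and both OS cells were under the threshold. Among the other cells EyeWire 6sw 21 had 6439 and ON S non-alpha 28 had 14913. That is 3 of 9 alpha, 2 of 10 DS and OS and 2 of 10 other cells, with both medians at the floor and a difference of 0.

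*Pigf* and *Pigo* were detected together in 2 cells, OFF T alpha 17 and OFF S alpha 18. Of the 8 cells with *Pigo*, 6 had *Pigf* under the threshold, and of the 7 cells with *Pigf*, 5 had *Pigo* under it. The r between the pair was 0.13 (rho 0.13), which placed *Pigf* 1711th of 7112 genes. OFF S alpha 18 had the highest signal of both genes, and without it the r was -0.10. It was also a rod-rich cell, with 9 of 10 rod genes, and had 5 of 9 RGC genes, the fewest of the alpha cells. On linear signals, where that cell weighs most, r was 0.60. The genes most like *Pigf* over the 29 cells were *Gtf3a*, a transcription factor for 5S ribosomal RNA (r = 0.85), *Anapc15*, a subunit of the anaphase-promoting complex (0.81), and *Rab30*, a small GTPase of the Golgi (0.76).

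*Pigk*, *Pigs* and *Pigt* encode subunits of the transamidase, and *Pigk* is its cysteine protease. In alpha cells *Pigk* was 5180 and 25781 in the ON alpha cells, 6705, 3090, 127421 and 65.5 in OFF S alpha cells 14, 15, 16 and 18, and 3754, 8580 and 3264 in the OFF T alpha cells 17, 19 and 20. It was thus present in 8 of 9 alpha cells, of which 3 lay between 3090 and 3754, just above the threshold. Above the threshold among DS and OS cells were ON-OFF DS 5, 6 and 7, at 19452, 55754 and 5877, and ON hOS 10, at 61466. All 4 ON DS cells were under the threshold, at 17.7 to 1403. Of the other 10 cells, 4 had it.

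The difference of medians for *Pigk* was 2.40, which is more than 2-fold, but it was 0.48, less than 2-fold, without the rod-rich cells. A difference that large in the same direction was present in 21% of the 7113 genes detected in at least 3 cells, and the opposite, more than 2-fold lower in alpha cells, in 11.8%. A second probe set of *Pigk* gave the other direction. It was detected in 3 of 9 alpha, 5 of 10 DS and OS and 2 of 10 other cells, and its difference was -3.33. The r between both probe sets was 0.29. The third was under the threshold in every cell. No direction for *Pigk* as a gene can therefore be given from these arrays.

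**Figure D2:**
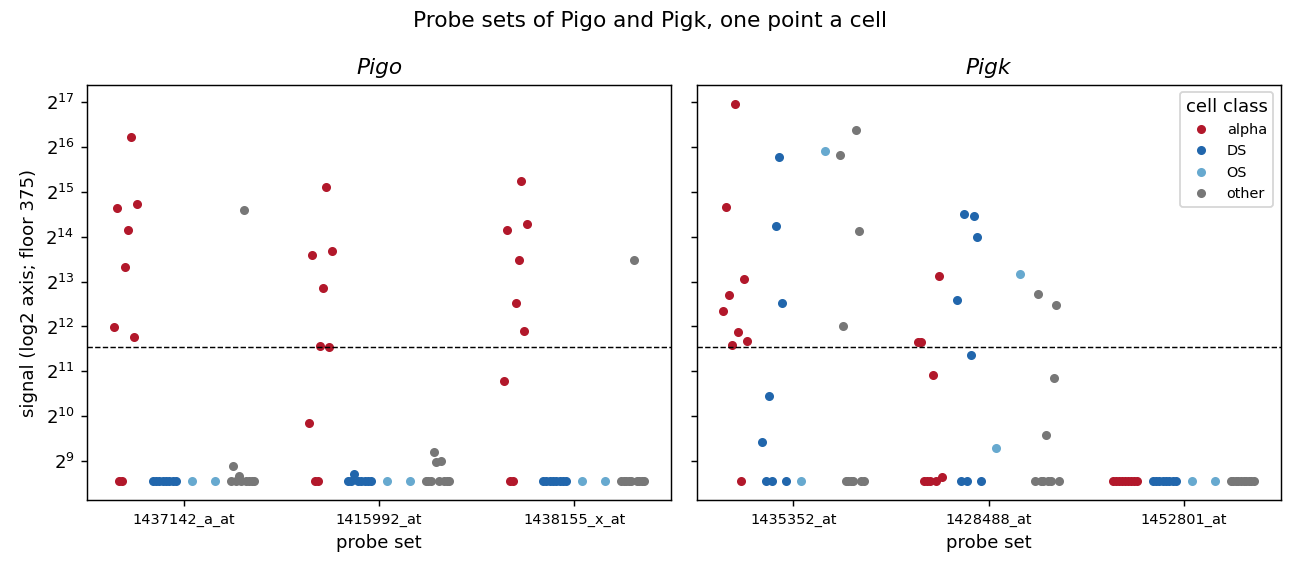
Signals of the 3 probe sets of *Pigo* (left) and of *Pigk* (right), with 1 point a cell, on a log2 axis floored at 375; colours mark alpha, DS, OS and other cells, and the dashed line is the threshold of 3000. The 3 *Pigo* probe sets leave all DS and OS cells under the line, whereas the alpha cells are above the DS and OS cells at the first *Pigk* probe set and below them, by median, at the second.

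*Pigs* signals were 20140 and 7262 in the ON alpha cells, 30984, 25353, 1367 and 19.7 in OFF S alpha cells 14, 15, 16 and 18, and 7370, 10.2 and 11481 in OFF T alpha cells 17, 19 and 20. DS and OS cells had a median of 72.5, and those above the threshold were ON DS 1 (3069, close to it), ON-OFF DS 6 (18463) and ON-OFF DS 8 (10996). It was present in 6 of 9 alpha, 3 of 10 DS and OS and 6 of 10 other cells. The difference of medians was 4.30, a size that the floor sets in part (6.67 with no floor). Over all settings tried it ran from 2.15 to 6.67. The second probe set of *Pigs* was under the threshold in every cell. As many of the other cells had *Pigs*, with signals up to 141983 in OFF high speed selective 23. The r with *Pigo* was 0.15 over all cells and -0.53 within the alpha cells, and it was 0.58 over the 11 cells with fewer than 5 rod genes. Among alpha cells, OFF S alpha 14 and 15 had *Pigs* without *Pigo*, and OFF S alpha 16 and 18 and OFF T alpha 19 had *Pigo* without *Pigs*.

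*Pigt* was detected in 1 cell, OFF S alpha 15, at 10025, and its next highest signal was 793.1 in ON alpha 13. Its r with *Pigo* was 0.65 over the 11 cells with fewer than 5 rod genes, in which all its signals were under the threshold. The *Pigo* signal of OFF S alpha 15 was 80.6. All 3 transamidase members were detected together in that cell alone. *Pigk* and *Pigs* were detected together in 9 cells, which were 6 of 9 alpha cells, 1 of 10 DS and OS cells (ON-OFF DS 6) and 2 of 10 other cells (EyeWire 6sw 21 and PixON 27). This count rests on the first *Pigk* probe set.

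Of the 8 cells with *Pigo*, 6 also had *Pigk*, 6 had *Pigq*, 5 had *Pigs*, 5 had *Pigb*, 3 had *Pigc*, 2 had *Pigf* and 1 had *Piga*, while 0 had *Pigh* or *Pigt*. *Pigo*, *Pigk* and *Pigs* were detected together in 4 cells, all of them alpha cells (ON alpha 12 and 13, OFF T alpha 17 and 20). In 0 of 29 cells were all 4 first-step members detected, and at most 2 of them were detected in the same cell. OFF T alpha 17 had the most members, 7 of 10, and ON vOS 9 had 0.

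Apart from *Pigo*, alpha cells had 3 to 6 of the other 9 members (median 4), DS and OS cells 0 to 4 (median 2) and the other cells 1 to 4 (median 2). The ranges overlapped. The number of members detected, *Pigo* included, had r of 0.52 with the number of genes detected in the cell, and the number of all 34 pathway genes with a value had r of 0.76. The number of genes detected includes the pathway genes and was not balanced between cells. The part of library depth in these values was not tested. *Pigo* itself had r of -0.02 with the number of detected genes.

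**Figure D3:**
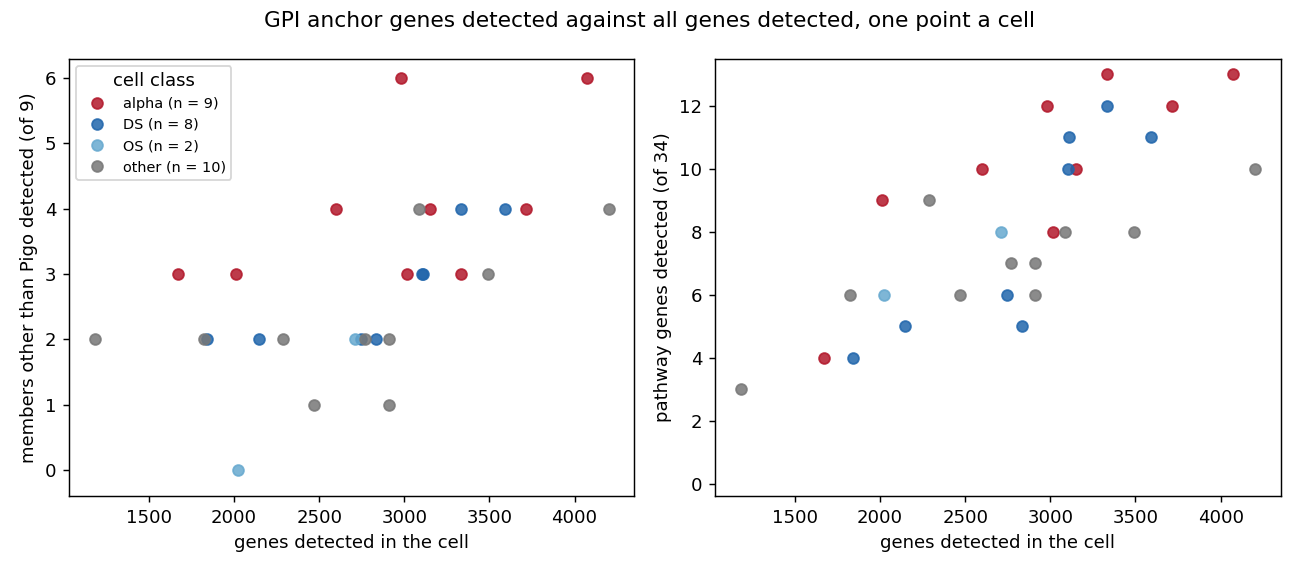
Members other than *Pigo* (left, of 9) and pathway genes (right, of 34) detected in each cell against the number of all genes detected in that cell, with 1 point a cell, coloured by class. Cells with more detected genes had more of both, and the alpha cells, at 3 to 6 other members, overlap the DS and OS cells, at 0 to 4.

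The *Pigo* signals fall into 8 cells with it and 21 without, so an r over 29 cells mostly contrasts those 2 sets and rests on them. Of the 9 other members, 6 were detected in at least 3 cells, and their r with *Pigo* ran from -0.10 for *Pigq* to 0.49 for *Pigc*, with a median of 0.14. The median over all 7112 genes was -0.0108. An r of at least 0.5 was reached by 0 of the 6, against 0.38% of all genes. At least a 2-fold higher median in alpha cells was present in 2 of the 6 (*Pigk* and *Pigs*), against 21%, and at least a 2-fold lower median in 0 of 6, against 11.8%. With *Pigk* read at its second probe set, 1 of 6 was higher and 1 lower. Counts this small cannot be told apart from those shares.

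The genes most like *Pigo* were none of the pathway. They were *Ncoa5*, a nuclear receptor coactivator (r = 0.68), *Specc1*, a coiled-coil protein of the cytoskeleton (0.65), *Tmem63b*, a membrane channel gated by stretch (0.61), *Kcnip2*, a subunit that modulates A-type potassium channels (0.60), and *Actr8*, an actin-related protein of a chromatin remodelling complex (0.60). *Ncoa5* was detected in 4 alpha cells and in no other cell, and all 4 had *Pigo*. *Specc1* was detected in 7 of 9 alpha, 0 of 10 DS and OS and 2 of 10 other cells, and 6 of its 9 cells had *Pigo*. Without the 2 cells farthest from the median of *Pigo*, the r of *Tmem63b* was 0.41 and that of *Kcnip2* 0.42, so both rest in part on OFF S alpha 18 and OFF T alpha 20.

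The genes beside *Pigo* on the chromosome were read as well, by their order in the RefSeq annotation. *Stoml2*, a mitochondrial membrane protein upstream of it, was detected in 2 of 9 alpha, 0 of 10 DS and OS and 2 of 10 other cells, and its r was 0.04. *Vcp*, an ATPase of protein quality control, was detected in 9 of 9 alpha, 9 of 10 DS and OS and 8 of 10 other cells (r = -0.05). *Fancg*, a DNA repair gene, was detected in 0 cells. Yet its signals under the threshold had r of 0.48 with *Pigo* at 1 probe set (up to 1452) and 0.47 at the other (up to 1662). *Fam214b* was detected in 3 of 9 alpha, 1 of 10 DS and OS and 2 of 10 other cells, with a difference of medians of 2.39 and r of -0.13.

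**Figure D4:**
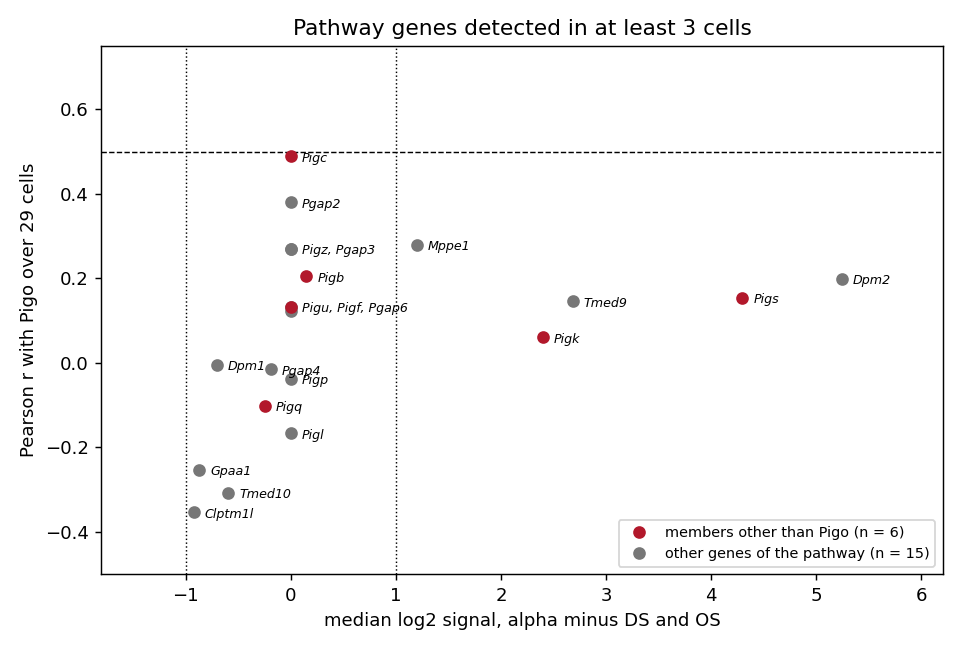
Difference of median log2 signal, alpha minus DS and OS (horizontal), against Pearson r with *Pigo* over 29 cells (vertical), for the 6 other members (red) and 15 other pathway genes (grey) detected in at least 3 cells. Dotted lines mark a 2-fold difference and the dashed line r of 0.5; all points lie under the dashed line, with *Pigc* nearest at 0.49, and the genes farthest to the right are *Dpm2* and *Pigs*.

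The wider pathway list held 26 further genes, of which 24 had a value and *Pigy* and *Pigw* did not. The alpha pattern was met by 0 of the 24 (0.055% of all genes), and r of at least 0.5 by 0 of the 15 detected in at least 3 cells (0.38%), so these counts too are at the background. Among the 21 pathway genes other than *Pigo* that were detected in at least 3 cells, 5 were more than 2-fold higher in alpha cells by median (23.8%, against 21% of all genes) and 0 were more than 2-fold lower (11.8% of all genes). With *Pigk* at its second probe set the counts were 4 and 1. The 5 were *Pigk*, *Pigs*, *Dpm2* (5.24, or 5.84 with no floor), which stabilizes the first-step complex and dolichol-phosphate-mannose synthase, *Tmed9* (2.68), a cargo receptor of the early secretory route, and *Mppe1* (1.20), which removes an ethanolamine phosphate from the finished anchor. The difference of *Mppe1* was -0.50 without the rod-rich cells, 0 with a floor at the trimmed mean, and under 2-fold without any single one of 9 cells, 0.74 without ON alpha 13, OFF S alpha 15 or 18 or OFF T alpha 17 and 0.98 without ON DS 3 or 4, ON-OFF DS 7 or 8 or ON vOS 9. That of *Tmed9* was 0.73 after quantile normalization and 1.20 with a floor at the trimmed mean.

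*Dpm2* had signals of 8231 and 14197 in the ON alpha cells, 60857, 63808, 40.6 and 39576 in OFF S alpha cells 14, 15, 16 and 18, and 151.7, 28281 and 4966 in OFF T alpha cells 17, 19 and 20. It was detected in 7 of 9 alpha cells, the same share as *Pigo*, but in 3 of 10 DS and OS cells (ON DS 1 at 3016, ON-OFF DS 5 at 46354 and ON-OFF DS 8 at 3562) and in 6 of 10 other cells. Of those 3, ON DS 1 and ON-OFF DS 8 lay just above the threshold. At a threshold of 6000 *Dpm2* was detected in 6 of 9 alpha, 1 of 10 DS and OS and 6 of 10 other cells. *Dpm2* and *Pigo* were detected together in 6 cells, of which 5 were alpha cells and 1 was SbC 25, and r was 0.20. Without the rod-rich cells its difference was 2.33.

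*Pign* and *Pigg*, the paralogs of *Pigo* that place ethanolamine phosphate on the first and the second mannose, were each detected in 1 cell. *Pign* was 4137 in EyeWire 6sw 21, with 2870 in OFF S alpha 15 next. Another of its 5 probe sets read 10965 in OFF T alpha 19 and was under the threshold elsewhere. *Pigg* was 4844 in SbC 25, the cell outside the alpha class that had *Pigo*, and r with *Pigo* was 0.32. *Pgap2*, which remodels the lipid of the anchor, had r of 0.38, the highest of the wider list among genes detected in at least 3 cells, and was detected in 2 alpha cells and 1 other cell.

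Genes of proteins that carry the anchor were listed as well. Of 67 listed, 65 had a value, 24 were detected in 0 cells and 27 were detected in at least 3 cells. The pattern was met by 0 of 65 (0.055% of all genes) and r of at least 0.5 by 0 of 27 (0.38%), which is what such shares give in lists of this size. *Thy1*, an abundant surface protein of RGCs, was detected in 8 of 9 alpha, 10 of 10 DS and OS and 9 of 10 other cells, with a difference of -0.13. Of the 27, 3 were more than 2-fold higher in alpha cells, namely *Opcml* (3.86), *Ntng1* (3.08) and *Ly6e* (1.68), and 7 were more than 2-fold lower, among them the contactins *Cntn2* (-2.57) and *Cntn6* (-1.90), where the shares over all genes were 21% and 11.8%. *Cntn6*, an adhesion molecule, was detected in 0 of 9 alpha, 5 of 10 DS and OS and 2 of 10 other cells.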

How the data were processed

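RNA of 29 single RGCs was reverse transcribed with an oligo-dT primer and amplified by 35 cycles of PCR before hybridization, so signals come mainly from the 3' ends of transcripts and a scarce transcript can go undetected. The authors computed the deposited intensity values with MAS5, with the version not given in the sources used here. Each of the 45101 probe sets was looked up in the platform annotation, with symbols updated through RefSeq gene IDs for 34754 probe sets. Probe sets of a single gene numbered 34958, and those of several genes (932) or none (9211) were left out.

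Detection, differences of medians and correlations on log2 signals were computed as the report defines them. The members and lists were chosen with earlier results of these data known. Named genes were the 10 members, list genes that met the pattern or had r of at least 0.5, the 5 genes closest to *Pigo* and the 3 closest to *Pigf*, and *Pign* and *Pigg*. Any other gene was named after seeing its values. Precision is limited by the number of arrays. Alternatives tried were other thresholds, floors and scalings, other probe sets, and leaving out cells. The calculations were tested on simulated data. No 2 arrays were identical (r between arrays 0.33 to 0.73). Python 3.11.15, numpy 2.4.6, pandas 2.3.3, scipy 1.17.1 and matplotlib 3.10.9 were used.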

Additional observations from a re-analysis of the deposited data

Results flagged for a closer look

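In 5 of 23 sets of signals, a member in alpha, DS or other cells, 1 cell lay farther from its neighbours than Dixon's criterion at 95% allows. The criterion's chance rate of about 1 in 20 holds for normally distributed values. Many signals here are tied at the floor, so the 5 of 23 cannot be set against that rate. *Pigo* in SbC 25 (24609) stood apart from the other cells outside the alpha, DS and OS classes, whose next highest signal was 478. In alpha cells, *Piga* in OFF T alpha 19 (3930) and *Pigt* in OFF S alpha 15 (10025) stood above the rest. *Pigq* was lowest among DS cells in ON DS 4 (13157, with 70041 next). *Piga* in EyeWire 6sw 21 (401) was set apart only because all but 2 of the 10 signals lay at the floor. The floor also held all other *Piga* signals of alpha cells. It held most signals in the flagged sets of *Pigt* and *Pigo*, so their gaps depend on it as well.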

How the results depend on the processing

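The count of 1 member with the alpha pattern was 0 at a threshold of 4 times the trimmed mean and 0 after quantile normalization, because *Pigo* was then detected in 5 of 9 alpha cells. It was 1 under the other settings. Leaving out any 1 alpha, DS or OS cell also gave 1, but the counts of cells had fixed that outcome in advance. Since *Pigo* was chosen on these same signals, it adds no support. With every probe set read on its own, 1 of the 28 met the pattern, the brightest of *Pigo*. The count of members with r of at least 0.5 was 1 on linear signals (*Pigf*, 0.60) and 2 once the 18 cells with 5 or more rod genes were left out (*Pigs*, 0.58, and *Pigt*, 0.65, over 11 cells of which 3 were alpha cells). It ran from 0 to 1 when each cell was left out, since *Pigc* reached 0.59 without ON hOS 10, 0.55 without ON alpha 13, 0.50 without OFF T alpha 19, 0.55 without OFF T alpha 20 and 0.55 without SbC 25. With the mean over all probe sets the difference of *Pigk* was -0.23, and without the rod-rich cells that of *Mppe1* was -0.50. Without those cells *Pigo* was detected in 3 of 3 alpha, 0 of 6 DS and OS and 0 of 2 other cells. The causes of these changes were not tested, except where the numbers of cells show them.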
